A study of Arabidopsis thaliana with 22 samples.

Results

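The levels of 10 circadian clock genes, LHY, CCA1, RVE8, PRR9, PRR7, PRR5, TOC1, GI, ELF4 and LUX, were followed across 22 libraries of root mRNA. The genes were taken by name and identifier, and they are 10 of the 33323 genes in the deposited count table. All 10 passed the filter on low counts, which left 21683 genes to test. Libraries fell into 4 groups: 5 labelled myb67 and 5 labelled WT in experiment 2, and 6 labelled myb67 and 6 labelled WT in experiment 1. The myb67 plants carried the allele myb67-1 in the Col-0 background, and WT plants were Col-0. MYB67 encodes a transcription factor of the R2R3 MYB family, and the series set out to find which genes depend on it. All plants were 14 days old and untreated, and both genotypes grew side by side on agarose plates with Murashige and Skoog salts. Each library was a biological replicate made from the pooled roots of about 40 seedlings, from the upper 1.5 cm of the primary root below the hypocotyl without lateral roots, so a library averages over many plants. The nature of the lesion in myb67-1, the light regime and the hour of collection were not given in the sources used here. The levels therefore cannot be placed on a daily cycle, and no phase was measured. The hour of collection, the sowing, the sequencing depth and the way the counts were made could each differ between the experiments and cannot be told apart.

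The plant clock is a loop of transcription factors that repress one another in turn through the day. LHY and CCA1, a pair of MYB-related factors made around dawn, repress the evening genes. The pseudo-response regulators PRR9, PRR7, PRR5 and TOC1 follow one after another from morning to evening and repress LHY and CCA1, while ELF4 and LUX belong to the evening complex that represses PRR9 at night. RVE8, a MYB-related factor close to LHY and CCA1, activates evening genes, and GI stabilises the photoreceptor ZTL that marks TOC1 for degradation. Roots hold a clock that can be set by signals from the shoot and by light. In mRNA from a whole organ, fewer cells with an active gene and less RNA per cell cannot be told apart.

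The 250 bases before the annotated start of each gene were read from the RefSeq annotation of TAIR10.1 and searched on both strands for short motifs known from clock regulation. The 5 shown here are those of the evening genes with an evening element, to which LHY, CCA1 and RVE8 proteins are known to bind, and those of LHY and CCA1 for comparison. The window of TOC1 spans chr5:24674713-24674962 on the plus strand, that of LUX chr3:17182792-17183041 on the plus strand, that of PRR5 chr5:8358547-8358796 on the minus strand, that of LHY chr1:37872-38121 on the minus strand and that of CCA1 chr2:19245341-19245590 on the plus strand. Capitals mark any of the 4 motifs searched, on either strand.
TOC1: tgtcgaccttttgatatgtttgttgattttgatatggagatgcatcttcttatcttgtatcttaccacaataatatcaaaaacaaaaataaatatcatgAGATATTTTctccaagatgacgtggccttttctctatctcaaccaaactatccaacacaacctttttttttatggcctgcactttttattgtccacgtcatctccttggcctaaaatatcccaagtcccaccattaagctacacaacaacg
LUX: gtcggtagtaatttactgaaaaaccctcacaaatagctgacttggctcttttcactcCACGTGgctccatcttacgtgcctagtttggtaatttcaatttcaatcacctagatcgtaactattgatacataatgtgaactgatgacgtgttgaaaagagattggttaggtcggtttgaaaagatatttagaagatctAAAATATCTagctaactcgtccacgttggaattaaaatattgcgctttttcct
PRR5: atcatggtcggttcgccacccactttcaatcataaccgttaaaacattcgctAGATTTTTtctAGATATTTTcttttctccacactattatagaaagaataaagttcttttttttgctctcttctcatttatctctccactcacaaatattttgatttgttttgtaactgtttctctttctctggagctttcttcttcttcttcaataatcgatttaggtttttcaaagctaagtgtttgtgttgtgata
LHY: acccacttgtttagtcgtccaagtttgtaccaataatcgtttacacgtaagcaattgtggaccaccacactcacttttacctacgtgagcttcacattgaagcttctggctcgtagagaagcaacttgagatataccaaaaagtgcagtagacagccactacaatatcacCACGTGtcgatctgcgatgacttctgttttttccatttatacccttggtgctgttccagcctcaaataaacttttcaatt
CCA1: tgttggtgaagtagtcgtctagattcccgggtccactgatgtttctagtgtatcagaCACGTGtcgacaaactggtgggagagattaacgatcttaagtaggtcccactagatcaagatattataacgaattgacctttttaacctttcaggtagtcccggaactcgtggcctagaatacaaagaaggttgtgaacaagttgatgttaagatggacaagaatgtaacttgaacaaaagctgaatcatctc

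The evening element AAAATATCT was found in 3 of the 10 promoters, those of PRR5 (positions -187 to -179 from the start), TOC1 (-151 to -143) and LUX (-53 to -45), against 2.36% of the 27443 promoters of the same length in the annotation. The CCA1-binding site AAAAATCT was found in PRR5 alone among the 10 (-198 to -191), against 6.69% of all promoters. It does not overlap the evening element there. The G-box CACGTG, a core bound by bZIP and bHLH factors, stood in 5 of the 10, those of LHY, CCA1, PRR9, PRR7 and LUX, against 6.49%. The LUX-binding site, GATACG or GATTCG, stood in PRR9 and ELF4, against 12.1%. The promoters of GI and RVE8 held none of these letters within the 250 bases. A match is a run of letters and not a measured binding site.

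**Figure D1:**
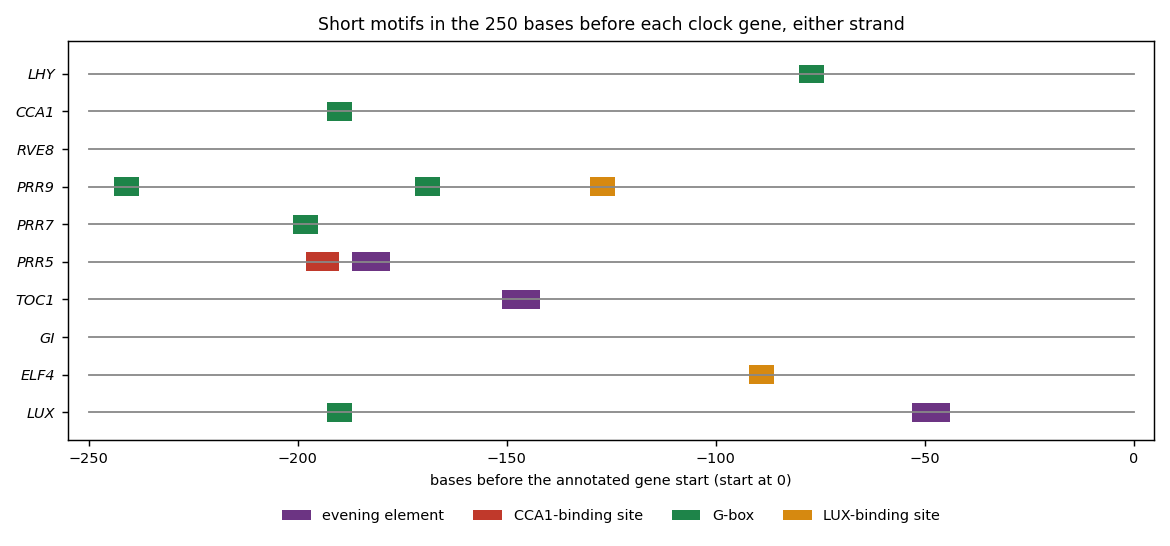
Positions of 4 short motifs in the 250 bases before the annotated start of each clock gene. The horizontal axis gives bases before the start, each row is a gene, and coloured boxes are matches on either strand. Evening elements lie in PRR5, TOC1 and LUX, and G-boxes in LHY, CCA1, PRR9, PRR7 and LUX.

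Total counts ran from 23190477 to 32091009 per library in experiment 2 and from 3705515 to 17727642 in experiment 1. The smallest was WT replicate 1 of experiment 1, where the ribosomal RNA gene AT3G41768 took 27.7% of the counts (27.7% to 27.8% by an exact 95% binomial interval for counting error alone). MYB67 itself had 14.6 to 23.8 CPM (counts scaled to a common library size by TMM) in libraries labelled myb67 and 6.68 to 13.6 CPM in WT libraries of experiment 2, and 9.997 to 14.6 CPM against 5.98 to 7.18 CPM in experiment 1. Within each experiment its level was thus higher, not lower, in every library labelled myb67 than in every WT library. Counts summed over a gene cannot check an allele whose position is not known, so directions between genotypes below are those of libraries labelled myb67. The 7 root markers checked (GPAT5, CYP86A1, CASP1, PER64, PYK10, NRT1.1 and PHO1) were detected in all 22 libraries.

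The largest differences between the experiments among the 10 genes were those of LHY, CCA1 and PRR9, genes of dawn and morning. LHY, CCA1 and PRR9 were 3.04-fold, 2.05-fold and 3.31-fold lower in experiment 2 than in experiment 1 among libraries labelled myb67, and 4.62-fold, 3.05-fold and 4.32-fold lower among WT libraries. TOC1 and LUX, which belong to the evening, were higher in experiment 2, by 1.65-fold and 1.36-fold in libraries labelled myb67 and by 1.67-fold and 1.55-fold in WT. GI, another evening gene, was lower in experiment 2 by 1.90-fold in both genotypes. Between the genotypes, no clock gene passed the test in either experiment.

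Calls rest on edgeR's quasi-likelihood test at a p under 0.05 after Benjamini-Hochberg adjustment across the 21683 genes. Experiment 2 against experiment 1, all 10 members were called in libraries labelled myb67, 2 higher and 8 lower, where 73.9% of all genes were called. In WT libraries 9 of 10 were called, 2 higher and 7 lower, where 70.8% of all genes were called. Since most genes of the table differed between the experiments, the number of members called is not a result about the clock. By direction, 38.7% of all genes were called higher and 35.2% lower in libraries labelled myb67, and 37.2% and 33.5% in WT. The median log2 fold change over the 10 members was -0.53 in libraries labelled myb67 and -0.58 in WT, beside 0.05 over all genes in each. The levels of experiment 2 and experiment 1 did not overlap for 6 members in libraries labelled myb67 (55.8% of all genes) and for 7 members in WT libraries (50.9%).

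**Figure D2:**
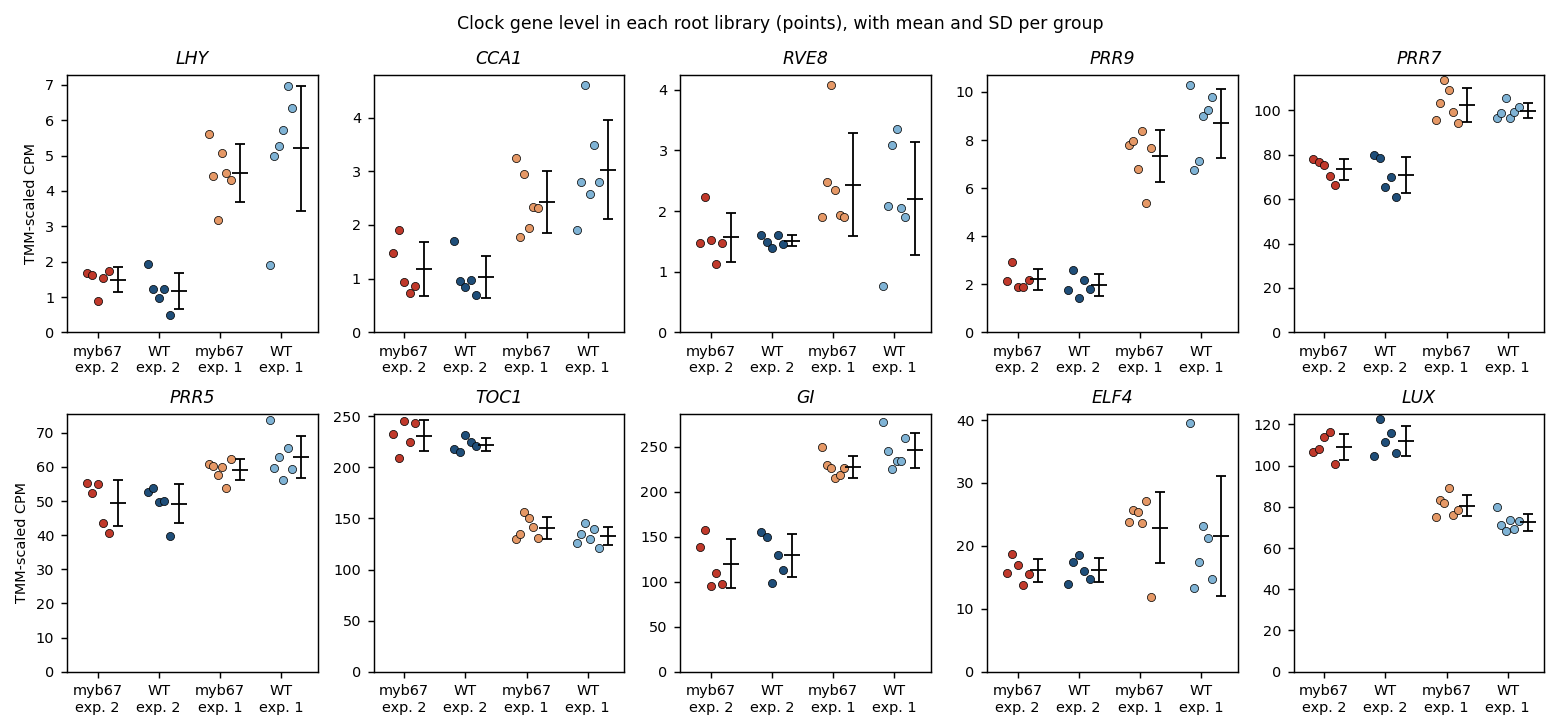
Level of each clock gene in all 22 libraries, in TMM-scaled CPM on linear axes that start at 0. Points are libraries, and bars give the mean and SD of each group. In both genotypes the means of TOC1 and LUX are higher in experiment 2, and those of all other clock genes are higher in experiment 1. The 2 genotypes of an experiment overlap in every panel.

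LHY (AT1G01060, chr1:33365-37871 in TAIR10.1, minus strand), a dawn repressor, had 1.66, 1.63, 0.888, 1.54 and 1.73 CPM in replicates 1 to 5 labelled myb67 of experiment 2, against a lowest value of 3.18, a median of 4.46 and a highest of 5.61 CPM in experiment 1. In WT libraries it had 1.93, 1.22, 0.976, 1.23 and 0.499 CPM in experiment 2, against 1.90, 5.50 and 6.96 CPM as lowest, median and highest in experiment 1. The libraries labelled myb67 of the 2 experiments did not overlap, and among WT libraries a single library of experiment 1, replicate 1 with 5 counts, fell within the range of experiment 2. The log2 fold change was -1.60 (SE 0.25; edgeR adjusted p = 4.80e-06) in libraries labelled myb67 and -2.21 (SE 0.25; edgeR adjusted p = 4.94e-08) in WT. LHY was among the low genes of the set, with 13 to 59 counts per library in experiment 2 and 5 to 94 in experiment 1.

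CCA1 (AT2G46830, chr2:19245591-19248915, plus strand), the close partner of LHY, had 1.48, 1.91, 0.931, 0.726 and 0.867 CPM in libraries labelled myb67 of experiment 2, and 1.77, 2.32 and 3.26 CPM as lowest, median and highest in experiment 1. WT libraries had 1.70, 0.948, 0.837, 0.981 and 0.691 CPM in experiment 2, and 1.90, 2.80 and 4.603 CPM as lowest, median and highest in experiment 1. All WT libraries of experiment 2 lay under those of experiment 1, while 1 library labelled myb67 of experiment 2, replicate 2, reached into the range of experiment 1. CCA1 was lower in experiment 2 by the test, at -1.04 log2 units (SE 0.28; edgeR adjusted p = 0.00187) in libraries labelled myb67 and -1.61 log2 units (SE 0.26; edgeR adjusted p = 1.08e-05) in WT.

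RVE8 (AT3G09600, chr3:2946239-2949017, plus strand), the activator of evening genes, had 1.48, 2.24, 1.52, 1.12 and 1.47 CPM in libraries labelled myb67 of experiment 2, and 1.90, 2.13 and 4.08 CPM as lowest, median and highest in experiment 1. In WT it had 1.61, 1.49, 1.39, 1.60 and 1.46 CPM in experiment 2, and 0.762, 2.07 and 3.34 CPM as lowest, median and highest in experiment 1. Both pairs of groups overlapped, on 36 to 55 counts per library in experiment 2 and 2.5 to 55 in experiment 1. RVE8 was called lower in experiment 2, at -0.56 log2 units (SE 0.23; edgeR adjusted p = 0.0312) in libraries labelled myb67 and -0.67 (SE 0.22; edgeR adjusted p = 0.00894) in WT. The call in libraries labelled myb67 was lost without replicate 4 or 5 labelled myb67 of experiment 2 (adjusted p = 0.0712 and 0.0511), without replicate 2 or 3 labelled myb67 of experiment 1 (0.0571 and 0.0887) and without the 3 least deep libraries (edgeR adjusted p = 0.0833, log2 fold change -0.41).

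Of the pseudo-response regulators, PRR9 (AT2G46790, chr2:19232607-19235179, plus strand), the earliest in the day, differed most. It had 2.15, 2.93, 1.90, 1.88 and 2.19 CPM in libraries labelled myb67 of experiment 2, against 5.38, 7.73 and 8.38 CPM as lowest, median and highest in experiment 1. WT libraries had 1.77, 2.61, 1.43, 2.18 and 1.80 CPM in experiment 2, against 6.74, 9.12 and 10.3 CPM in experiment 1. Neither genotype's libraries overlapped between the experiments. PRR9 differed by -1.73 on the log2 scale (SE 0.16; edgeR adjusted p = 2.65e-09) in libraries labelled myb67 and -2.11 (SE 0.16; edgeR adjusted p = 1.40e-10) in WT.

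PRR7 (AT5G02810, chr5:637681-642030, minus strand), which acts after PRR9, had 77.9, 76.9, 75.1, 70.6 and 66.3 CPM in libraries labelled myb67 of experiment 2, and 94.2, 101.3 and 113 CPM as lowest, median and highest in experiment 1. WT libraries had 79.7, 78.7, 65.3, 70.1 and 60.9 CPM in experiment 2, and 96.3, 99.1 and 105 CPM in experiment 1. Every library of experiment 2 lay under every library of experiment 1. The difference was small beside that of PRR9, at -0.48 (SE 0.07; edgeR adjusted p = 1.15e-06) in libraries labelled myb67 and -0.49 (SE 0.07; edgeR adjusted p = 9.29e-07) in WT on the log2 scale.

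PRR5 (AT5G24470, chr5:8356204-8358546, minus strand), which peaks later still, had 55.2, 52.5, 54.9, 43.7 and 40.5 CPM in libraries labelled myb67 of experiment 2, and 53.8, 60.2 and 62.4 CPM as lowest, median and highest in experiment 1. WT libraries had 52.7, 53.9, 49.9, 50.0 and 39.6 CPM in experiment 2, and 56.2, 61.4 and 73.9 CPM in experiment 1. The groups overlapped in libraries labelled myb67 and not in WT. It was called lower in experiment 2, at -0.26 log2 units (SE 0.09; edgeR adjusted p = 0.00991) in libraries labelled myb67 and -0.34 (SE 0.09; edgeR adjusted p = 0.00130) in WT.

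TOC1 (AT5G61380, chr5:24674963-24678550, plus strand), the evening member of the family, differed the other way. It had 233, 209, 246, 225 and 243 CPM in libraries labelled myb67 of experiment 2, against 129.9, 138 and 156 CPM as lowest, median and highest in experiment 1. WT libraries had 218, 215, 231, 225 and 221 CPM in experiment 2, against 121, 132 and 145 CPM in experiment 1. All 10 libraries of experiment 2 stood above all 12 of experiment 1. The log2 fold change was 0.72 (SE 0.06; edgeR adjusted p = 1.49e-10) in libraries labelled myb67 and 0.74 (SE 0.06; edgeR adjusted p = 1.53e-10) in WT.

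GI (AT1G22770, chr1:8061751-8067790, plus strand), a large evening protein that also acts in flowering, had 138, 158, 95.7, 109.8 and 97.5 CPM in libraries labelled myb67 of experiment 2, against 216, 226 and 249.9 CPM as lowest, median and highest in experiment 1. WT libraries had 155, 149, 99.0, 129 and 113 CPM in experiment 2, against 226, 239.6 and 277 CPM in experiment 1. Every library of experiment 2 lay under every library of experiment 1. The log2 fold change was -0.93 (SE 0.12; edgeR adjusted p = 3.30e-07) in libraries labelled myb67 and -0.92 (SE 0.12; edgeR adjusted p = 4.25e-07) in WT. GI and TOC1 thus differed between the experiments in opposite directions.

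Of the evening complex, LUX (AT3G46640, chr3:17183042-17186959, plus strand), its DNA-binding subunit, had 107, 108, 114, 116 and 100.6 CPM in libraries labelled myb67 of experiment 2, and 74.9, 80.1 and 88.9 CPM as lowest, median and highest in experiment 1. WT libraries had 105, 122, 111, 116 and 106 CPM in experiment 2, and 68.0, 72.0 and 80.0 CPM in experiment 1. The 2 experiments did not overlap in either genotype, with log2 fold changes of 0.44 (SE 0.06; edgeR adjusted p = 2.29e-07) in libraries labelled myb67 and 0.64 (SE 0.06; edgeR adjusted p = 1.10e-09) in WT. The annotated span of LUX overlaps that of AT3G46650 on the opposite strand over 1507 bases. The sources used here do not state how strand was counted, so reads of both genes may be mixed. AT3G46650 had 398 to 585 counts per library in experiment 2 and 52.5 to 203.5 in experiment 1, where LUX had 2658 to 3841 and 210 to 1265.5.

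ELF4 (AT2G40080, chr2:16734294-16734953, minus strand), a small protein of the evening complex, had 15.6, 18.7, 17.0, 13.8 and 15.5 CPM in libraries labelled myb67 of experiment 2, and 11.8, 24.6 and 27.2 CPM as lowest, median and highest in experiment 1. WT libraries had 14.0, 17.4, 18.6, 16.0 and 14.7 CPM in experiment 2, and 13.3, 19.3 and 39.6 CPM in experiment 1. The libraries of experiment 1 spread widely and both pairs of groups overlapped. The log2 fold change was -0.50 (SE 0.20; edgeR adjusted p = 0.0295) in libraries labelled myb67 and -0.32 (SE 0.20; edgeR adjusted p = 0.161) in WT, with a 95% interval of -0.73 to 0.09 in WT. The call in libraries labelled myb67 was lost in 5 fits that left out 1 library, without replicate 4 or 5 of experiment 2 and without replicate 2, 3 or 5 of experiment 1, all labelled myb67 (adjusted p = 0.0554, 0.05001, 0.0602, 0.0505 and 0.0717).

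**Figure D3:**
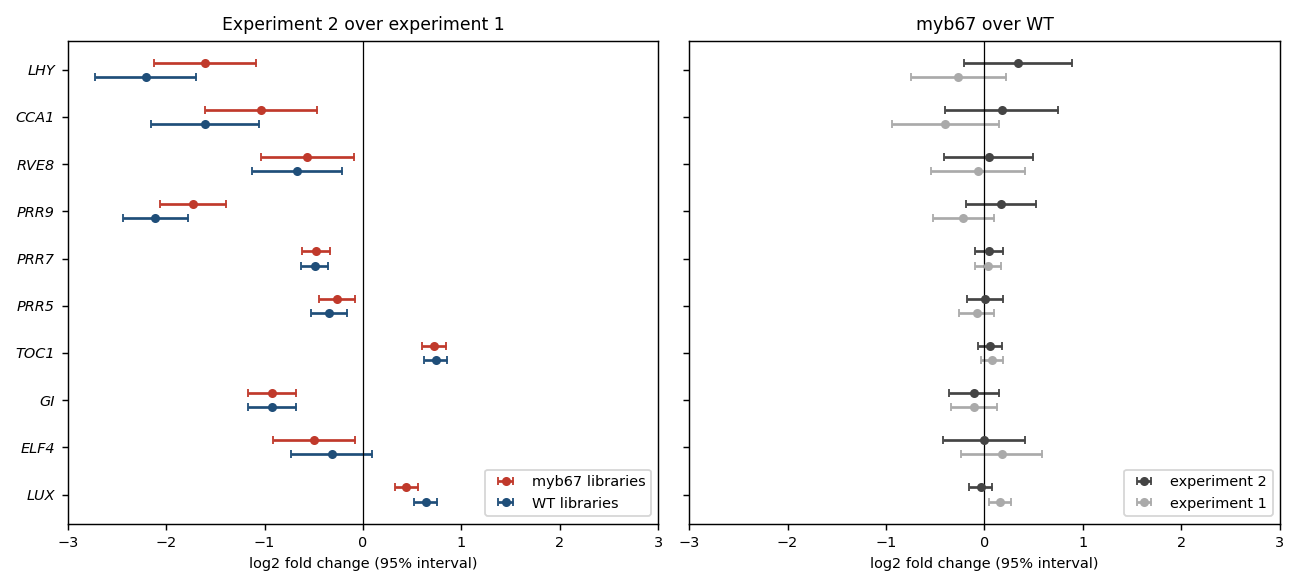
Log2 fold changes of the clock genes with 95% intervals from the edgeR fit, experiment 2 over experiment 1 on the left and libraries labelled myb67 over WT on the right. On the left the intervals of LHY, CCA1, RVE8, PRR9, PRR7, PRR5 and GI lie left of 0 in both genotypes. Those of TOC1 and LUX lie right of it. The interval of ELF4 lies left of 0 in libraries labelled myb67 and covers 0 in WT. On the right every interval covers 0 except that of LUX in experiment 1 (0.16, 95% interval 0.04 to 0.27).

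Markers of green tissue moved with the experiments too. The summed level of 10 markers, 9 genes of the photosynthetic apparatus and their regulator GLK1, was 1189.6 to 1737 CPM in libraries labelled myb67 and 934 to 1501 CPM in WT libraries of experiment 2, and 158 to 223 CPM in libraries labelled myb67 and 208 to 1166 CPM in WT libraries of experiment 1. WT replicates 3 and 6 of experiment 1 stood apart with 748 and 1166 CPM, and the other 4 WT libraries of that experiment had 208 to 264 CPM. RBCS2B was at 0 counts in 4 libraries of experiment 1 and GLK1 in 1, and the other 8 markers were above 0 in all 22 libraries. The genes of the RBCS and LHCB families are near-identical copies whose counts may be split between them. Of the 10 markers, 8 were called higher in experiment 2 and 0 lower in libraries labelled myb67, beside 38.7% and 35.2% of all genes. In WT 5 were called higher and 1 lower, beside 37.2% and 33.5%. The root markers summed to 11195 to 13875 CPM in libraries labelled myb67 and 11911 to 14109 CPM in WT of experiment 2. In experiment 1 they summed to 12167 to 13464 and 12142 to 14634 CPM. Of the 7 root markers, 2 were called higher and 4 lower in libraries labelled myb67, and 1 higher and 4 lower in WT, beside the same shares. The median log2 fold change of the root markers was -1.02 in libraries labelled myb67 and -0.93 in WT. Like sums thus do not mean like levels of each marker. Without WT replicates 3 and 6 of experiment 1, the same numbers of clock genes were called, 10 in libraries labelled myb67 and 9 in WT. The part of green tissue in the levels of the clock genes was not tested.

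Levels of different genes are compared here per kilobase of exon. In experiment 2 TOC1 led in both genotypes, at 82.3 ± 5.35 CPM per kilobase in libraries labelled myb67 and 79.1 ± 2.24 in WT (SD, n = 5 each), and its libraries overlapped with those of no other clock gene. PRR5, GI, LUX, ELF4 and PRR7 followed with means between 21.9 and 30.0 CPM per kilobase, and neighbours in this order did not differ beyond their spread. PRR9, RVE8, LHY and CCA1 had 1.03 CPM per kilobase or less. In experiment 1 GI led, at 52.9 ± 2.81 CPM per kilobase in libraries labelled myb67 and 57.1 ± 4.51 in WT (SD, n = 6 each), with TOC1 next at 50.1 ± 3.80 and 47.3 ± 3.11. The ranges of GI and TOC1 overlapped in libraries labelled myb67 and not in WT. LUX stood under PRR7 in experiment 1, at 20.6 ± 1.33 CPM per kilobase in libraries labelled myb67 and 18.5 ± 1.08 in WT, and over it in experiment 2, at 27.8 ± 1.57 and 28.6 ± 1.87. In each of these 4 groups the libraries of LUX and PRR7 did not overlap.

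Ratios of counts within a library do not depend on how libraries are scaled. The count of LHY was 0.713% of that of TOC1 in the median library labelled myb67 and 0.549% in the median WT library of experiment 2, against 3.29% and 4.06% in experiment 1. On the log2 scale the mean ratio was -7.31 ± 0.45 in libraries labelled myb67 and -7.69 ± 0.72 in WT in experiment 2 (SD, n = 5 each), and -4.97 ± 0.36 and -4.78 ± 0.66 in experiment 1 (SD, n = 6 each). No library of experiment 2 reached the range of experiment 1. Experiment 2 minus experiment 1, the ratio was lower by 2.34 log2 units in libraries labelled myb67 and by 2.92 in WT, while libraries labelled myb67 minus WT it differed by 0.38 in experiment 2 and by -0.19 in experiment 1. These differences between genotypes rest on single libraries. In experiment 2 the value was 0.60 without WT replicate 1, 0.58 without replicate 3 labelled myb67 and 0.11 without WT replicate 5, and in experiment 1 it was -0.45 without WT replicate 1 and lay between -0.28 and -0.065 without any other library. The count of GI was 48.8% of that of TOC1 in the median library labelled myb67 and 57.5% in WT in experiment 2, and 162% and 181% in experiment 1. The count of GI thus lay under that of TOC1 in experiment 2 and over it in experiment 1. On which side of 1 this ratio lies also depends on the lengths of both genes. These are ratios of counts and not per length, and no test was made, since each is a score over members.

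**Figure D4:**
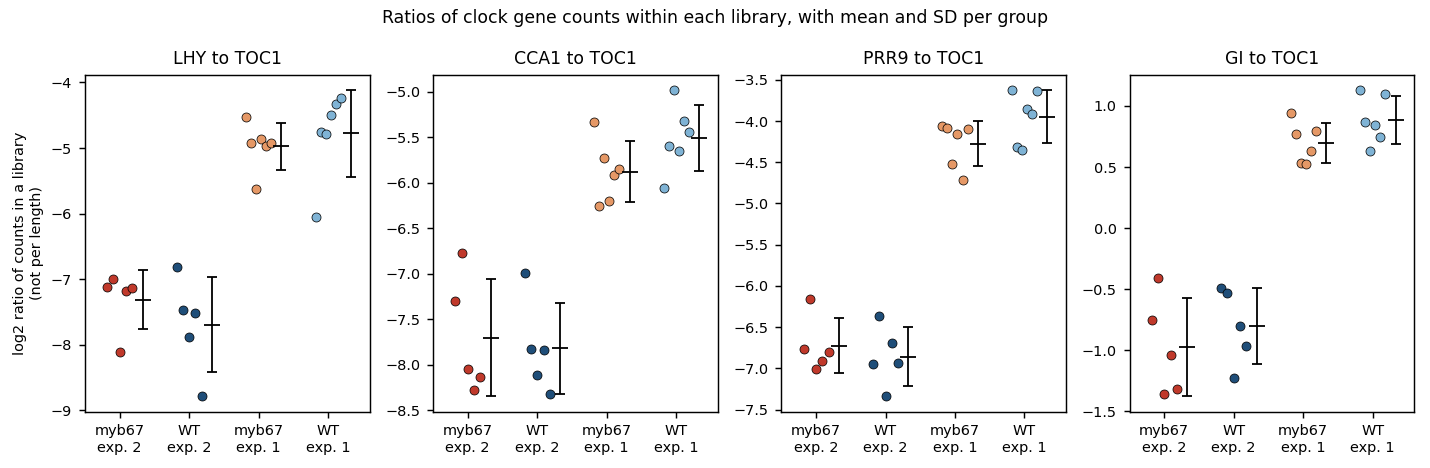
Log2 ratio of the counts of LHY, CCA1, PRR9 and GI to the count of TOC1 in each library, not per length, with the mean and SD per group. In all 4 panels the libraries of experiment 2 lie under those of experiment 1, and libraries labelled myb67 overlap with WT libraries of the same experiment.

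Between genotypes, none of the 10 clock genes was called. Over both experiments edgeR called 326 of 21683 genes (1.5%) and 0 members, with 0 members at an unadjusted p under 0.05. In experiment 2 it called 288 genes (1.33%) and 0 members, with 0 at an unadjusted p under 0.05. In experiment 1 it called 135 genes (0.623%) and 0 members, with 1 at an unadjusted p under 0.05. The share of all genes at an unadjusted p under 0.05 was not computed. Numbers of members at that threshold, here and below, are therefore not a result about the clock. Over both experiments the log2 fold changes of the 10 members ran between -0.13 for CCA1 and 0.09 for ELF4. DESeq2 and limma-voom also called 0 members in each. Libraries of the 2 genotypes overlapped for all 10 members in both experiments, where 1.84% of all genes did not overlap in experiment 2 and 1.13% in experiment 1. In experiment 2 the replicate numbers were taken to pair the libraries. With the number as a block, 980 genes were called in place of 288, again with 0 members. The authors' deposited table has 417 of 26394 genes under an adjusted p of 0.05 and 0 of the 10 clock genes, whose adjusted p there was 0.977 for TOC1 and 1.00 for the other 9.

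The clock genes of higher level had narrow intervals for the difference between the genotypes. Libraries labelled myb67 over WT, the log2 fold change of TOC1 was 0.06 (95% interval -0.06 to 0.18) in experiment 2 and 0.08 (-0.04 to 0.19) in experiment 1. That of PRR7 was 0.05 (-0.09 to 0.19) in experiment 2 and 0.04 (-0.10 to 0.17) in experiment 1. PRR5 had 0.0030 (-0.18 to 0.19) and -0.08 (-0.25 to 0.10), and GI had -0.11 (-0.36 to 0.14) and -0.11 (-0.34 to 0.13), in experiment 2 and experiment 1 in that order. LUX had -0.04 (-0.16 to 0.08) in experiment 2 and 0.16 (0.04 to 0.27) in experiment 1, where it averaged 80.5 ± 5.20 CPM in libraries labelled myb67 and 72.5 ± 4.23 CPM in WT (SD, n = 6 each). Its unadjusted edgeR p in experiment 1 was 0.00899 and its adjusted p 0.306.

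LHY, CCA1, PRR9, RVE8 and ELF4 were measured less closely. LHY had a log2 fold change of 0.34 (95% interval -0.21 to 0.89; edgeR adjusted p = 0.922) in experiment 2 and -0.26 (-0.74 to 0.21; edgeR adjusted p = 0.835) in experiment 1. Its means were 1.49 ± 0.344 CPM in libraries labelled myb67 and 1.17 ± 0.519 CPM in WT in experiment 2 (SD, n = 5 each), and 4.51 ± 0.818 and 5.20 ± 1.77 CPM in experiment 1 (SD, n = 6 each). CCA1 had 0.17 (-0.40 to 0.75) in experiment 2 and -0.40 (-0.94 to 0.15) in experiment 1, and PRR9 had 0.17 (-0.19 to 0.52) and -0.22 (-0.53 to 0.09). RVE8 had 0.04 (-0.41 to 0.50) and -0.07 (-0.54 to 0.41), and ELF4 had -0.0023 (-0.42 to 0.41) and 0.18 (-0.23 to 0.59), in experiment 2 and experiment 1 in that order. These intervals are wide beside those of TOC1 or PRR7, and these libraries do not tell apart the differences that lie inside them. The estimates also moved with single libraries. In experiment 2 LHY was 0.59 without WT replicate 1 and 0.16 without WT replicate 5, and PRR9 was 0.29 without WT replicate 2 and 0.047 without replicate 2 labelled myb67. In experiment 1 CCA1 was -0.22 without WT replicate 3, PRR9 was -0.13 without replicate 5 labelled myb67, and ELF4 was 0.34 without WT replicate 1 and 0.061 without WT replicate 2.

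The difference between the genotype effects, experiment 2 minus experiment 1, was tested as an interaction. Of 21683 genes 15 were called (0.0692%) and 0 members, with 1 member at an unadjusted p under 0.05, and with the replicate block 516 genes and 0 members. That member was LUX, at -0.20 on the log2 scale (95% interval -0.36 to -0.03; edgeR adjusted p = 0.489). LHY had 0.60 (-0.12 to 1.33; edgeR adjusted p = 0.646), CCA1 had 0.57 (-0.22 to 1.36; edgeR adjusted p = 0.704) and PRR9 had 0.38 (-0.09 to 0.85; edgeR adjusted p = 0.655). The fall of these 3 dawn and morning genes between the experiments was thus the smaller in libraries labelled myb67 by estimate, with intervals that cover 0.

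Other genes of the clock also differed between the experiments. Of 32 further clock genes (relatives and partners of the members), 16 were higher and 6 lower in experiment 2 in libraries labelled myb67, and 15 higher and 6 lower in WT, beside the 38.7% and 35.2%, and the 37.2% and 33.5%, of all genes given above. JMJ30, a histone demethylase gene known to be expressed with TOC1 in the evening, had 97.1 ± 16.5 CPM in libraries labelled myb67 and 92.2 ± 15.8 CPM in WT in experiment 2 (SD, n = 5 each), against 15.0 ± 0.626 and 13.8 ± 1.47 CPM in experiment 1 (SD, n = 6 each). Its difference was 2.68 log2 units (SE 0.11; edgeR adjusted p = 1.45e-14) in libraries labelled myb67 and 2.76 (SE 0.11; edgeR adjusted p = 1.91e-14) in WT. BOA, the close relative of LUX, was higher by 1.78 in libraries labelled myb67 and 1.70 in WT on the log2 scale, and RVE1, a MYB-related factor that links the clock to auxin, by 1.57 and 1.45. PRR3, which protects TOC1 from degradation, was higher by 0.48 and 0.67. The further clock genes named here are called genes of smallest p, and all of them were higher in experiment 2. The 6 called lower in each genotype are not named. Only JMJ30 is given a time of day here, so nothing is read from the named genes about dawn or evening genes.

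Of 24 genes known as outputs of the clock, 23 were tested, all but CBF1. In libraries labelled myb67, 10 were higher and 7 lower in experiment 2, and in WT 9 were higher and 9 lower. These 17 and 18 called genes stand beside the 73.9% and 70.8% of all genes called, so their number is not a result about outputs. CAT3, a catalase gene known for an evening peak, had 3522 ± 395 CPM in libraries labelled myb67 and 3600.3 ± 368 CPM in WT in experiment 2 (SD, n = 5 each), against 549.6 ± 64.4 and 687 ± 116 CPM in experiment 1 (SD, n = 6 each). COR27, an evening gene also induced by cold, was higher by 1.89 in libraries labelled myb67 and by 2.00 in WT on the log2 scale, and ASN1, an asparagine synthetase gene known as dark-induced, by 1.49 and 1.50. BBX24, a B-box factor of light signalling, fell by 0.71 and 0.84. Of 8 genes of light input, 3 were higher and 2 lower in each genotype, 5 called genes beside the same shares of all genes, among them the photoreceptor genes CRY1 (1.01 in libraries labelled myb67 and 0.80 in WT), PHYA (0.68 and 0.57) and CRY2 (0.35 and 0.35), and SPA1, a partner of the ligase COP1 (-0.61 and -0.62). Between the genotypes and without the replicate block, 0 genes of these 3 lists were called in edgeR over both experiments, in either experiment or for the difference. At an unadjusted p under 0.05 this fit had 2 further clock genes, 3 outputs and 0 light input genes over both experiments, 1, 2 and 0 in experiment 2, and 2, 5 and 0 in experiment 1. The share of all genes at that threshold was not computed, so these numbers are not a result about the lists.

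With the replicate number as a block, the further clock genes and the light input genes still had 0 calls between the genotypes, while some outputs were called. In experiment 2, whose replicate numbers were taken to pair the libraries, 3 of 23 outputs were called, where 4.52% of all genes were. CDF5, a DOF factor gene of the flowering pathway, had 4.70, 4.76, 3.26, 4.15 and 4.71 CPM in libraries labelled myb67 and 3.08, 3.39, 2.79, 3.38 and 2.65 CPM in WT, higher in the library labelled myb67 in 5 of 5 numbered pairs (log2 fold change 0.49, SE 0.11, edgeR adjusted p = 0.0145, against 0.0536 with no block). COL1, a relative of the flowering regulator CONSTANS, was higher in 5 of 5 pairs by 0.37 (edgeR adjusted p = 0.0437, against 0.552 with no block), at 8.41 ± 2.31 CPM in libraries labelled myb67 and 6.46 ± 1.45 CPM in WT (SD, n = 5 each). The catalase gene CAT2 was lower in 5 of 5 pairs, at -0.22 (edgeR adjusted p = 0.0260, against 0.610 with no block), with 127 ± 21.3 CPM in libraries labelled myb67 and 149 ± 24.9 CPM in WT (SD, n = 5 each). With the numbers set aside, the libraries of the genotypes overlapped for all 3.

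In experiment 1, whose numbers do not pair the libraries, the fit with the block called 1 output, where 1.07% of all genes were called. PIF4, a bHLH factor gene of growth, had 0.9748, 1.18 and 2.27 CPM as lowest, median and highest in libraries labelled myb67 and 2.09, 2.46 and 5.78 CPM in WT, on 5 to 17 counts in libraries labelled myb67. With the block its log2 fold change was -1.17 (edgeR adjusted p = 0.00147, against 0.170 with no block). Since the numbers of experiment 1 pair no libraries, that p is not read as a result. With the block in experiment 2 only, the log2 fold change of PIF4 in experiment 1 was -1.29 (edgeR adjusted p = 0.0192). The genotypes overlapped. The WT libraries with a high sum of green tissue markers, replicates 3 and 6, had 5.78 and 2.54 CPM of PIF4. WT replicate 1, where those markers summed to 264 CPM, had 3.81 CPM of PIF4 on 9.5 counts. WT replicates 2, 4 and 5 had 2.36, 2.09 and 2.37 CPM. The part of green tissue in the level of PIF4 was not tested. For the difference between the experiments the block called CAT2 (-0.32) and PIF4 (1.21), where 2.38% of all genes were called. With the block in experiment 2 only, that difference of PIF4 was 1.33 (edgeR adjusted p = 0.0365). Over both experiments it called 0 outputs, where 1.78% were, and 0 clock genes in any of these comparisons. With the block in experiment 2 only, the same outputs were called.

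Within groups, the clock genes varied to very different degrees. After group means were subtracted, the SD of log2 CPM was 0.09 for LUX and 0.09 for TOC1, lower than in all but 7.57% and 8.51% of genes. It was 0.51 for LHY, 0.46 for RVE8, 0.43 for CCA1 and 0.39 for ELF4, where the median over all genes was 0.19. LHY, RVE8 and CCA1 were also the members of fewest counts, while ELF4 had at least 103.5 counts in every library. PRR7, PRR5, GI and PRR9 lay between, at 0.11, 0.15, 0.21 and 0.26. These SDs pool both experiments, and single libraries weigh in them. ELF4 deviated from its group means by -0.22 to 0.22 in experiment 2. In experiment 1 it deviated by 0.97 in WT replicate 1 and by -0.90 in replicate 6 labelled myb67. LHY deviated by -1.30 and RVE8 by -1.29 in WT replicate 1 of experiment 1, the library of fewest counts.

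In experiment 2, deviations from group means correlated across all genes tested between libraries of the same replicate number (r of 0.285 to 0.671). The pairing was read from these correlations, so likeness of members by number is not a separate result about the clock. The share of all genes alike in this way was not computed. GI deviated from its group means in the same direction in 4 of 5 pairs. In replicates 1 and 2 it had 138 and 158 CPM in libraries labelled myb67 and 155 and 149 CPM in WT libraries, and in replicates 3 and 5 it had 95.7 and 97.5 CPM in libraries labelled myb67 and 99.0 and 113 CPM in WT libraries. The spread of GI within a genotype was thus larger than its difference between genotypes of the same number in these 4 replicates. In replicate 4 GI had 109.8 CPM in the library labelled myb67 and 129 CPM in WT. These deviated from their group means in opposite directions, by -0.098 and 0.022 log2 units. ELF4 deviated from its group means in the same direction in 5 of 5 numbered pairs, and LHY, CCA1, PRR7, PRR5 and GI in 4 of 5. PRR9 and LUX did so in 3 of 5, and TOC1 and RVE8 in 2 of 5. With the replicate number as a block, the log2 fold change of GI in experiment 2 was -0.12 (edgeR adjusted p = 0.292) and that of LHY 0.37 (edgeR adjusted p = 0.685).

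**Figure D5:**
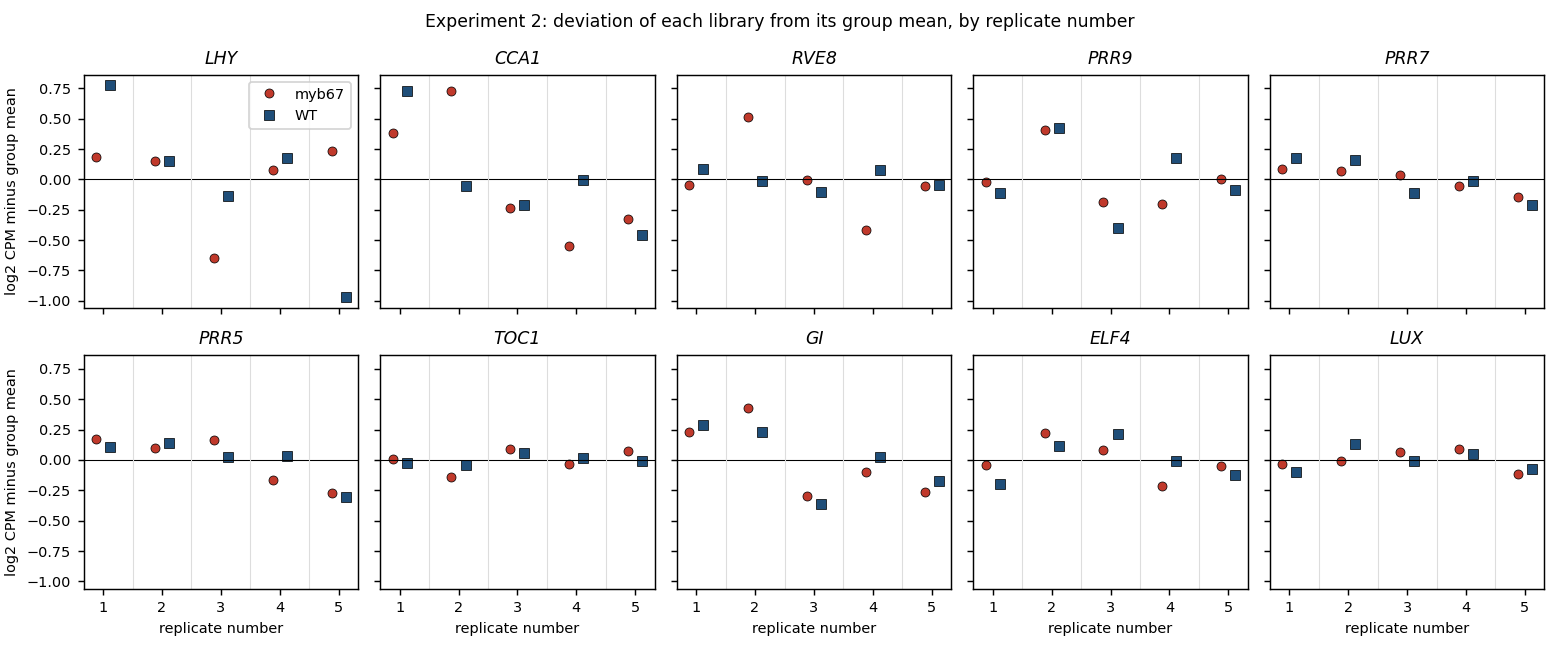
Deviation of each library of experiment 2 from its group mean (log2 CPM) by replicate number, for each clock gene, with libraries labelled myb67 as circles and WT libraries as squares. GI is high in replicates 1 and 2 and low in replicates 3 and 5 in both genotypes, and TOC1 stays near 0 throughout.

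Across libraries of 1 experiment, with group means removed, 12 relations between pairs of clock genes were computed and none passed. The strongest in experiment 2 was LHY with CCA1, with Pearson's r = 0.61 (permutation p = 0.0753, adjusted p = 0.661) and Spearman's rho = 0.58 (permutation p = 0.0991, adjusted p = 0.918) over 10 libraries, and r = 0.58 without the 2 libraries farthest from the median of LHY. In experiment 1 the same pair had r = 0.46 (permutation p = 0.220, adjusted p = 0.661) and rho = 0.25 (permutation p = 0.430, adjusted p = 0.918) over 12 libraries, and r = 0.34 without 2. LHY with PRR5 had r = -0.56 in experiment 1 (permutation p = 0.169, adjusted p = 0.661; rho = -0.25, permutation p = 0.453, adjusted p = 0.918), and 0.08 without WT replicate 1 and replicate 3 labelled myb67, so that value rests on those libraries. LHY with TOC1, its evening counterpart, had r = -0.29 in experiment 2 and 0.0039 in experiment 1 (permutation p = 0.333 and 0.991, adjusted p = 0.666 and 0.991), with rho = -0.08 and -0.12 (permutation p = 0.842 and 0.7101, adjusted p = 0.918 for both). The other 7 relations had r between -0.15 and 0.43, with adjusted permutation p from 0.661 to 0.983.

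Genes most like LHY and TOC1 were sought by Pearson's r of log2 CPM over the 22 libraries, with the 4 group means removed, among 16747 genes of at least 5 CPM on average. The 5 most like LHY were RPA70B, a subunit of replication protein A (r = 0.79), APTX (0.79), AT1G31150 (0.79), AT1G71070 (0.79) and the beta-galactosidase gene BGAL5 (0.78). Without WT replicate 1 of experiment 1, the library of fewest counts, these were 0.64, 0.64, 0.66, 0.72 and 0.74. The 5 most like TOC1 were ORA59, an ethylene-response factor gene (0.82), the G-box factor gene GBF1 (0.82), AT5G10190 (0.80), AT4G01330 (0.80) and AT1G18030 (0.80), and without that library 0.83, 0.81, 0.80, 0.80 and 0.79. Within experiments, the 5 genes most like LHY had r between 0.73 and 0.86 in experiment 2 and between 0.73 and 0.92 in experiment 1. Those most like TOC1 had 0.73 to 0.90 in experiment 2 except AT1G18030 at 0.48, and 0.79 to 0.90 in experiment 1. The points share libraries and their depth, and none of these genes is a clock gene of the lists used here. These genes were picked as the highest of 16747 on these 22 libraries, so high values within experiments follow from the choice. The r that the best of unrelated genes would reach was not computed.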

How the data were processed

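mRNA of 22 root libraries was compared by genotype and experiment, grouped by their titles. Per the submitters' processing notes, the tools were STAR 2.7.10a, DESeq2 1.40.1, HOMER, Trimmomatic 0.39 and FastQC, with no role or order, and the build was TAIR10. The authors deposited raw counts per gene for experiment 2, and values for experiment 1 that are in steps of 0.5 (28.2% to 34.6% of the values per library are not whole), treated here like estimated counts. The sources used here do not state how strand and multi-mapping reads were handled. The authors' deposited comparison of the genotypes gives log2 fold changes on a log2 scale with standard errors, adjusted p-values and, as a signal, the mean of the scaled counts.

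Before fitting, counts of experiment 1 were rounded to whole numbers. Genes were kept by filterByExpr over the 4 groups and scaled by TMM in edgeR 4.0.16 (R 4.3.3), and the quasi-likelihood F test was fitted to all 22 libraries, with the experiment as a term for the genotype over both experiments and as 4 group means otherwise. SEs and 95% intervals come from the fitted coefficients and are not adjusted for the number of genes. Levels per kilobase use the exon length of TAIR10.1. Correlations used log2 CPM with a prior count of 2 and 100000 permutations within groups. Alternatives were RLE and upper quartile scaling, no filter, a stricter filter (5 CPM in 5 libraries), limma-voom (limma 3.58.1), DESeq2 1.42.0, a replicate block, no experiment term, separate experiments and leaving out libraries. The scripts were tested on simulated counts. Figures used Python 3.11.15 and matplotlib 3.10.9.

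Whether replicate numbers pair the libraries was checked by the correlation across genes of deviations from group means between same-numbered libraries of both genotypes, taken as paired where all were above 0.1. It was 0.285 to 0.671 in experiment 2 and -0.158 to 0.0430 in experiment 1, so the numbers were taken to pair the libraries of experiment 2. There 4 of 5 libraries of each genotype matched best the library of their own number. Those of replicate 5 matched best replicate 4 of the other genotype. The titles give replicate numbers and state no pairing, so it was read from these same data. No 2 replicates were duplicates, with a chi-square per gene of at least 2.19 between replicates of a group.

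The clock genes, the lists and the tests were chosen with earlier results of these data known. The genes named were the 10 members, MYB67, up to 4 called genes of smallest p per list and comparison, and the 5 genes most like LHY and TOC1. Gene positions, lengths and promoters come from RefSeq's TAIR10.1, joined by locus identifier. The deposited files hold no coordinates.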

Additional observations from a re-analysis of the deposited data

Results flagged for a closer look

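In 56 groups of 5 or 6 libraries (the 10 clock genes and the 4 ratios in the 4 groups), 8 had 1 library far from the others. Its gap to its neighbour was large beside the range of the group, where chance gives about 1 in 20 for independent groups. The ratios reuse the same genes and libraries, so the 56 groups are not independent and the 8 are not read as an excess. LHY in replicate 3 labelled myb67 of experiment 2 had 0.888 CPM on 21 counts, and the other 4 libraries had 1.54 to 1.73 CPM. The log2 ratio of LHY to TOC1 in the same library was -8.11, where the others had -7.19 to -7.00. The same ratio in WT replicate 1 of experiment 1, the library of fewest counts, was -6.06, where the others had -4.78 to -4.24. CCA1 in WT replicate 1 of experiment 2 had 1.70 CPM on 52 counts, and the others had 0.691 to 0.981 CPM.

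PRR5 in WT replicate 5 of experiment 2 had 39.6 CPM on 1032 counts, and the others had 49.9 to 53.9 CPM. ELF4 in replicate 6 labelled myb67 of experiment 1 had 11.8 CPM on 143 counts, and the others had 23.6 to 27.2 CPM. ELF4 in WT replicate 1 of experiment 1 had 39.6 CPM on 103.5 counts, and the others had 13.3 to 23.1 CPM. RVE8 in replicate 3 labelled myb67 of experiment 1 had 4.08 CPM on 18 counts, and the others had 1.90 to 2.47 CPM. Of the 8, 3 lie in the 3 libraries of fewest counts, all of experiment 1. Why these libraries stand apart was not tested.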

How the results depend on the processing

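No clock gene was called between the genotypes under any of the 32 or 33 alternatives run. In the contrasts between experiments, the direction of each member was kept wherever it had a value, with 8 to 10 called in libraries labelled myb67 and 7 to 9 in WT. The stricter filter gave no value for CCA1 and RVE8. Calls lost without single libraries (ELF4 and RVE8 in libraries labelled myb67) are given beside those genes.

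The number of genes called between the genotypes moved more. In experiment 2 (288) it was 980 with a replicate block in both experiments, 1050 with a block in experiment 2 only, 136 with the experiment fitted on its own, and 192 to 509 without 1 library each, 509 without WT replicate 1 of experiment 2. In experiment 1 (135) it was 272 with DESeq2, 231 and 280 with the block in both experiments and in experiment 2 only, and 81 without WT replicates 3 and 6. For the difference (15) it was 6 with limma-voom, 43 with DESeq2, 516 and 573 with those blocks, 8 without WT replicates 3 and 6, 6 without the 3 libraries of fewest counts, and 10 to 23 without 1 library each, 23 without WT replicate 1 of experiment 2. Over both experiments (326) it was 83 with no experiment term. Blocked fits give no value for the contrast between experiments. The block changed no call of a clock gene, and the clock outputs it called are given above.

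Of the 40 log2 fold changes of members between genotypes, none of which passed the test, 13 changed sign without 1 library, 18 others moved by over 1.5 times and 9 did not. PRR5 in experiment 2 was -0.0026 with upper quartile scaling, -0.0013 with the stricter filter, -0.0017 with limma-voom and -0.065 to 0.064 without 1 library each. RVE8 in experiment 2 was -0.0076 with limma-voom and -0.12 to 0.15 without 1 library each, in experiment 1 0.10 with the block in both experiments and -0.21 to 0.071 without 1 library each, for the difference -0.075 with that block and -0.052 to 0.25 without 1 library each, and over both experiments 0.061 with that block, 0.023 without WT replicates 3 and 6, 0.048 with no experiment term and -0.090 to 0.056 without 1 library each. LHY over both experiments was 0.0059 with limma-voom, 0.0076 with DESeq2, 0.0073 with the block, 0.047 without WT replicates 3 and 6, 0.0012 without the 3 libraries of fewest counts and -0.093 to 0.069 without 1 library each. GI for the difference was 0.0072 with no filter, 0.0056 without WT replicates 3 and 6 and -0.12 to 0.070 without 1 library each. PRR7 was -0.0139 for the difference without WT replicates 3 and 6, -0.038 in experiment 1 without the 3 libraries of fewest counts, and without 1 library each -0.035 to 0.057 for the difference and -0.0011 to 0.091 in experiment 2. TOC1 without the 3 libraries of fewest counts was -0.0057 in experiment 1 and 0.062 for the difference, which was -0.048 to 0.017 without 1 library each. Without 1 library each, ELF4 and CCA1 in experiment 2 were -0.063 to 0.050 and -0.060 to 0.43, and PRR9 over both experiments was -0.11 to 0.0063. The cause of these changes was not tested.

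With no filter the median log2 fold change of all genes between experiments was 0.36 in libraries labelled myb67 and 0.32 in WT, beside 0.05. Depth limits LHY, CCA1, RVE8 and PRR9, which had at most 129 counts in any library. Replicate spread and counts allow no statement on small differences of these genes.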
